A study of Mus musculus with 22 samples.

Results

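Basement membrane genes were examined in sorted stromal cells of mouse tumors. The 31 genes were chosen by symbol and by what their proteins do, not by a rule on their levels. Earlier results of these data were known at that point. All 31 genes were found among the 41388 genes of the count tables. They comprise 6 collagen IV chains, 2 multiplexin collagens, 10 laminin chains, 2 nidogens, the heparan sulfate proteoglycans *Hspg2* and *Agrn*, the integrin ligand *Npnt*, 2 netrins, 2 SMOC proteins, 3 genes of the Fraser complex and the receptor *Dag1*. RNA had been sequenced from 22 bulk libraries of 4 sorted populations and 2 genotypes.

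Tumors had been grown in C57BL/6 mice whose age is given as postnatal day 56. Wild type here means mice with Osx-cre, a Cre recombinase driven by the promoter of *Sp7* (the gene of Osterix), and the Ai9 reporter, so that every cell with a history of Osx-cre activity, and all its progeny, is TdTomato positive whether or not it still makes Osterix. Osx-cre can be held back by doxycycline. The study states that its later experiments used mice given doxycycline in the chow until weaning. Its account of the sequenced samples does not repeat this, and the sample labels do not give it. In mice so fed, the label would record Osx-cre activity from weaning on and not the earlier lineage. Here Osx+ means TdTomato positive and CD45+ means positive for the pan-leukocyte surface marker. The other mice are labelled Cdh2-cKO;Ai9, a conditional knockout of *Cdh2* (N-cadherin) with the same reporter. The Cre driver of that knockout is not given in the sources used here, although its cells were sorted as Osx+ and Osx- too. The submitters state that 4 wild type and 6 Cdh2-cKO mice were inoculated and that 2 to 3 preparations per group passed quality control, as biological replicates. Each genotype contributed 2 libraries of Osx+ CD45- cells and 3 of each of Osx- CD45-, Osx+ CD45+ and Osx- CD45+ cells. The sample labels name an orthotopic MMTV-BO1 tumor, whereas the stated design gives subcutaneous tumors, as does the study's account of the wild type samples, which names a GFP-labelled PyMT-BO1 mammary carcinoma line from which GFP+ tumor cells were sorted away.

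Basement membranes are thin sheets of matrix under epithelia and endothelia and around muscle, fat and nerve cells. Laminin heterotrimers of an alpha, a beta and a gamma chain polymerize on the cell surface, collagen IV trimers form a second network, and nidogens and the proteoglycan perlecan (*Hspg2*) connect the networks. In tumors, the vessel wall and the stroma are known sources of these proteins.

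Promoter sequence is shown for 5 members whose levels are described below, *Nid1* and *Hspg2* as linkers of the networks, *Lama5* as the laminin alpha chain of epithelia, and *Col4a5* and *Col4a6* as a collagen IV gene pair. Of the 31 members, 20 had an entry in the RefSeq promoter table (GRCm38.p6). Each sequence is the 180 bases before the gene's first exon in the GENCODE M21 annotation, which for *Nid1* begins 51 bases before the start in the deposited files and for the others at that start, written 5′ to 3′ on the gene's strand: chr13:13437371-13437550 on the plus strand for *Nid1*, chr4:137468589-137468768 plus for *Hspg2*, chr2:180225860-180226039 minus for *Lama5*, chrX:141475205-141475384 plus for *Col4a5* and chrX:141474077-141474256 minus for *Col4a6*. Capitals mark matches on either strand to the GC box GGGCGG, the TATA box TATAAA or the CCAAT box CCAAT, none of which overlapped another match.
Nid1: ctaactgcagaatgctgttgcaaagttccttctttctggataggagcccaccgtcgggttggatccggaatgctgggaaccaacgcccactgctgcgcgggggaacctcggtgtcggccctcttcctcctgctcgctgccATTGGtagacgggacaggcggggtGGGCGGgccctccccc
Hspg2: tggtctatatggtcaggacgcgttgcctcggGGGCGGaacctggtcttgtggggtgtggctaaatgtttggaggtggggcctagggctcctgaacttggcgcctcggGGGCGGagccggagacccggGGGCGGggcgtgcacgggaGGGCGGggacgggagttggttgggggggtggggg
Lama5: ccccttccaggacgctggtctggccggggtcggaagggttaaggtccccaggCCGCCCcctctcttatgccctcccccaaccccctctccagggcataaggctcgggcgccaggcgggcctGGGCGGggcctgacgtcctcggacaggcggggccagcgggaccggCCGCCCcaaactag
Col4a5: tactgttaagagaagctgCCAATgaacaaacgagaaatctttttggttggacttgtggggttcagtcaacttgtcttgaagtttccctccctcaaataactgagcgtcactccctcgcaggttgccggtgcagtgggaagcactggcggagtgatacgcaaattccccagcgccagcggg
Col4a6: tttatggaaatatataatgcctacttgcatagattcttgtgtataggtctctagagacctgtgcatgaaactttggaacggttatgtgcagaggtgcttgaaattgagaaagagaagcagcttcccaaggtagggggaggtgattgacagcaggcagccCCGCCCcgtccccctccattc
The GC box was found 4 times in the *Hspg2* window, 3 times in *Lama5*, once each in *Nid1* and *Col4a6* and not in *Col4a5*. The CCAAT box was found once in *Nid1* and once in *Col4a5*, and the TATA box in none of the 5 windows. Of 32851 promoter windows of this length, 30.2% held the GC box, 27.5% the CCAAT box and 8.94% the TATA box. A match describes letters only. *Col4a6* and *Col4a5* lie head to head on chromosome X with starts 1309 bases apart, and *Col4a1* and *Col4a2* head to head on chromosome 8, where the annotated starts at 11312826 (*Col4a1*, minus strand) and 11312805 (*Col4a2*, plus strand) overlap near their first exons.

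Library totals ranged from 16594228 to 26784003 reads counted on genes (median 18977040), and 3 counts, taken as the smallest signal, corresponded to between 0.103 and 0.2 normalized CPM (the count divided by the library total after its scaling with a TMM factor, in the usual CPM unit). This floor covers counting error only. Defining markers of leukocytes summed to between 15336.3 and 50609.7 normalized CPM in CD45+ libraries. In CD45- libraries the sum ranged from 150.0 to 18408.2, and it exceeded 10000 CPM in WT Osx- CD45- replicate 3 and cKO Osx+ CD45- replicate 1. All 10 fibroblast, all 12 endothelial and all 12 pericyte and smooth muscle markers had a median over 1 CPM in CD45- libraries, so that these libraries held RNA of several stromal cell types. In CD45+ libraries 9 fibroblast, 5 endothelial and 6 pericyte and smooth muscle markers had such a median too. The fibroblast sum was 76.6 to 274 CPM there, against 5223.8 to 67795.5 CPM in CD45- libraries. Which cells gave the members' levels in CD45+ libraries was not tested. Of 11 epithelial markers 5 had one in CD45- and 4 in CD45+ libraries. *Epcam* was at most 2.04 CPM in CD45- libraries, whereas *Krt18* ranged from 17.8 to 1567.5 CPM although GFP+ cells had been sorted away. *Sp7* itself was at or near 0 in all libraries (2 counts in all CD45- libraries and 1 in all CD45+ libraries). *Cdh2*, the targeted gene, had higher values in the CD45- libraries labelled Cdh2-cKO, at 17.2 and 13.1 CPM against 9.13 and 5.18 in wild type Osx+ CD45- cells, and 12.4, 18.4 and 14.2 against 6.01, 7.46 and 4.51 in Osx- CD45- cells. The ranges did not overlap, and edgeR's adjusted p was 0.668 and 0.625. Of all genes, 21.4% were likewise higher without overlap in Osx+ CD45- cells and 3.84% in Osx- CD45- cells. A sum over the whole gene does not show whether the deleted part was read, so these values do not check the label, and the genotype is given below as labelled.

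The question of the first comparison was where among the sorted cells the basement membrane genes were transcribed. Their transcripts were concentrated in CD45- cells. Together the 31 genes took between 0.0638% and 0.437% of the counts of a CD45- library (10 libraries) and between 0.00648% and 0.0188% of a CD45+ library (12 libraries), and these ranges did not overlap. Of the 31 members 27 had more than 1 CPM in at least 2 libraries and were tested, 11 of them through their level in CD45- libraries alone. These were *Col4a3*, *Col4a4*, *Col4a6*, *Lama1*, *Lama2*, *Lamb3*, *Lamc3*, *Npnt*, *Ntn4*, *Smoc2* and *Frem1*. For those 11 a difference was to be found by the way they passed. Their fold changes and p-values below are thus descriptions and no support, and the counts that follow include them. By edgeR's quasi-likelihood test with Benjamini-Hochberg adjustment over 15043 genes, 26 members were higher in CD45- cells and 0 lower, while 31.1% of all genes tested were higher and 32.6% lower. The median log2 fold change was 4.38 over the members tested and -0.06 over all genes. In 18 members every CD45- library lay above every CD45+ library, against 11.0% of all genes. With a log2 fold change of at least 2 required as well, 24 members were higher, against 16.1% of all genes, and with no filter on low counts 27 of 31 were, *Lama3* added, against 16.5% of 30046 genes. The count of 26 was the same by limma, which called 66.1% of all genes in either direction, and by DESeq2, which called 64.7%, and also without the 2 CD45- libraries with over 10000 CPM of leukocyte markers. In bulk libraries, fewer cells of a type and less RNA per cell cannot be told apart.

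**Figure D1:**
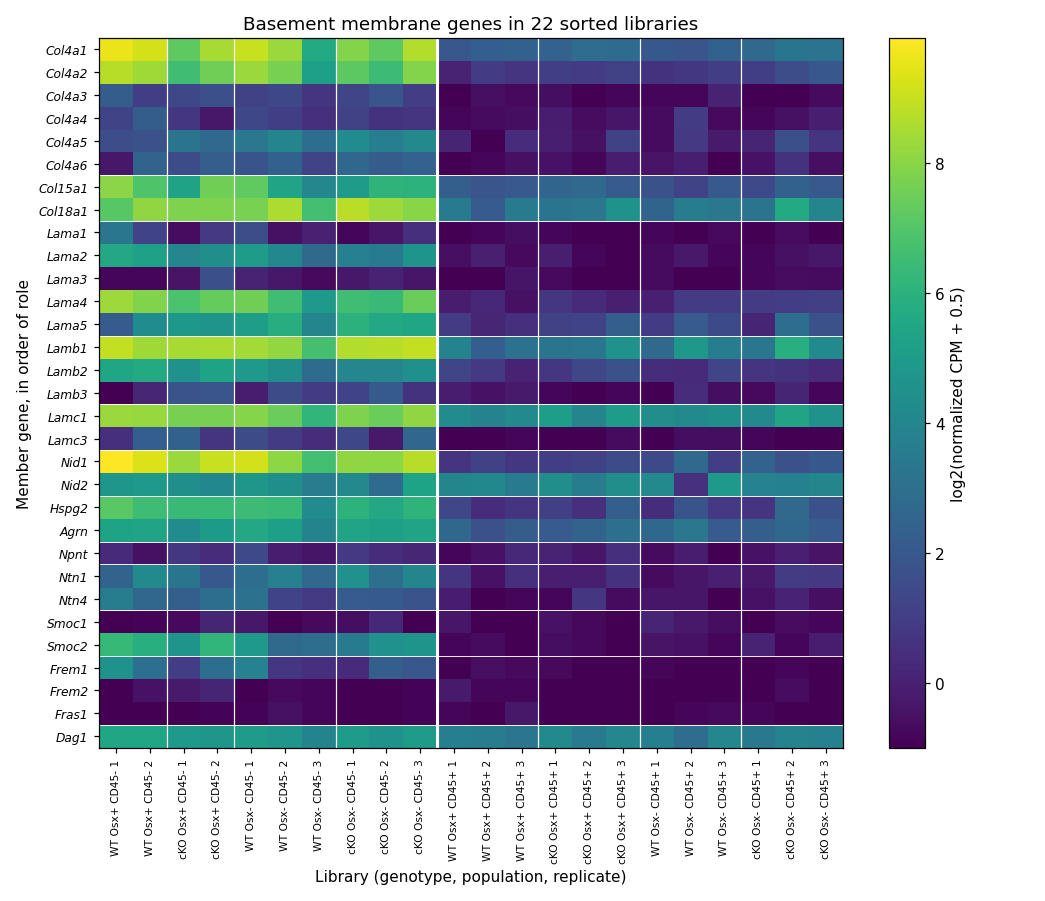
Level of each of the 31 members (rows, ordered by role) in each of the 22 libraries (columns), as log2 of normalized CPM with 0.5 added; the thick white line separates 10 CD45- from 12 CD45+ libraries. The CD45- columns are brighter for most members, *Nid2*, *Dag1* and *Lamc1* keep a visible level in CD45+ columns, and *Smoc1*, *Frem2* and *Fras1* are dark throughout.

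Among the collagen IV chains, the network-forming trimer of *Col4a1* and *Col4a2*, the form found in nearly all basement membranes, dominated. *Col4a1* was at 788 and 606 CPM in WT Osx+ CD45- cells, 147 and 359 in cKO Osx+ CD45-, 523, 311 and 51.4 in WT Osx- CD45-, and 238, 150 and 407 in cKO Osx- CD45-. In the 12 CD45+ libraries it ranged from 3.24 to 9.09 CPM with a median of 4.85. Even the lowest CD45- library, WT Osx- CD45- replicate 3, thus exceeded the highest CD45+ library, and the log2 fold change was 6.01 with a standard error (SE) of 0.339 (edgeR, adjusted p = 1.91e-10). *Col4a2* ranged from 35.6 to 435 CPM in CD45- and from 0.535 to 3.39 in CD45+ libraries, without overlap (log2 fold change 7.05, SE 0.356, adjusted p = 7.03e-11). Per kilobase of transcript, the ratio of *Col4a2* to *Col4a1* was 0.615 ± 0.0551 (SD, n = 10) in CD45- libraries and 0.29 ± 0.07 (SD, n = 12) in CD45+ libraries, with ranges of 0.541 to 0.714 and 0.16 to 0.41. The ratio therefore varied little among CD45- libraries whose *Col4a1* levels spanned 51.4 to 788 CPM.

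The other 4 collagen IV chains, which form the trimers of kidney, skin and smooth muscle basement membranes, were minor and also higher in CD45- cells. *Col4a5* ranged from 2.55 to 19.3 CPM in CD45- libraries (log2 fold change 3.36) and *Col4a6* from 0.306 to 5.56 CPM (3.95). *Col4a3* (4.53) and *Col4a4* (2.50) reached at most 4.23 and 4.14 CPM, and their CD45+ levels rest on 23 and 60 counts in all. As shares of the collagen IV level per kilobase in CD45- cells, *Col4a1* made up 59.4% ± 3.64 and *Col4a2* 36.4% ± 1.4 (SD, n = 10), *Col4a5* 2.87% ± 2.34, and the remaining 3 chains under 1% each. The multiplexins *Col15a1* and *Col18a1*, collagens with heparan or chondroitin sulfate chains that release endostatin-like fragments, were at 16.2 to 260 and 99.8 to 442 CPM in CD45- libraries. Their log2 fold changes were 4.69 (SE 0.378) and 4.26 (SE 0.353), and neither overlapped between CD45- and CD45+ libraries.

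*Lama4*, the laminin alpha chain of vessel walls, fat and muscle, was the main alpha chain of CD45- cells. It stood at 324 and 230 CPM in WT Osx+ CD45-, 113 and 162 in cKO Osx+ CD45-, 186, 95.8 and 30.0 in WT Osx- CD45-, and 93.9, 85.3 and 178 in cKO Osx- CD45- libraries. CD45+ libraries ranged from 0.211 to 1.6 CPM with a median of 0.943, and no library overlapped (log2 fold change 7.40, SE 0.342, adjusted p = 4.12e-11, edgeR). *Lama2*, the alpha chain of muscle and nerve, reached 6.38 to 47.9 CPM against 0.467 at most in CD45+ libraries (log2 fold change 6.81). *Lama5*, the alpha chain of epithelia and mature endothelium, was at 4.08 to 65.3 CPM against 0.604 to 7.15, and 1 CD45- library, WT Osx+ CD45- replicate 1, fell within the CD45+ range (3.65, SE 0.387, adjusted p = 3.93e-07). *Lama1*, mainly an embryonic chain, ranged from 0.0525 to 9.39 CPM in CD45- libraries and was at 0 in 6 of 12 CD45+ libraries (4.55, from 10 counts in CD45+ libraries in all). *Lama3*, an epithelial chain, did not pass the filter, with 113 counts in CD45- and 14 in CD45+ libraries.

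Of the alpha chain level per kilobase, *Lama4* held 69.4% ± 11.4, *Lama5* 21.5% ± 13.1 and *Lama2* 7.89% ± 1.56 in CD45- cells (SD, n = 10). In CD45+ cells, at far lower levels, *Lama5* held 62.2% ± 17.2 and *Lama4* 27.9% ± 15 (SD, n = 12). *Lamb1* and *Lamc1*, the beta and gamma chains shared by most laminins, were nearly alone in their classes, with 87.4% ± 4.42 of the beta and 98.6% ± 0.916 of the gamma level among the chains examined. *Lamb1* was at 105 to 489 CPM in CD45- against 4.27 to 57.3 in CD45+ libraries (log2 fold change 4.55, SE 0.376), and *Lamc1* at 72.1 to 314 against 14.5 to 41.6 (3.29, SE 0.207), both without overlap. *Lamb2*, the beta chain of the neuromuscular junction and the kidney glomerulus, was higher by 4.38 on the log2 scale (SE 0.285) and *Lamc3* by 5.77 (SE 0.688), the latter against 10 counts in all CD45+ libraries. *Lamb3*, an epithelial chain, was higher by 2.82 (SE 0.624, adjusted p = 0.000763), with 0 to 3.82 CPM in CD45- libraries. Without WT Osx+ CD45- replicate 2 its adjusted p was 0.973 and its log2 fold change 1.41.

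**Figure D2:**
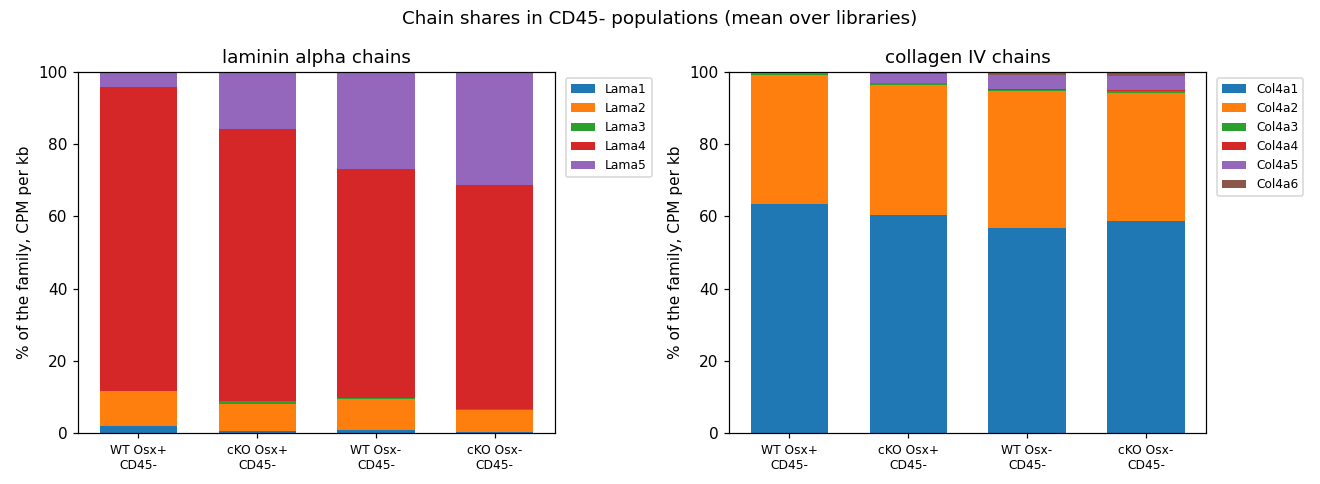
Mean share of each laminin alpha chain (left) and collagen IV chain (right) in the family's summed level per kilobase, for the 4 CD45- groups (2 libraries each for Osx+, 3 for Osx-). *Lama4* and *Col4a1* are the largest parts in every group, and the *Lama5* part is smallest in WT Osx+ CD45- (4.24%).

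The nidogens, which bind laminin and collagen IV, parted ways. *Nid1* had the highest mean level per kilobase of all members in CD45- cells (72.8 ± 41.9 CPM per kilobase, SD, n = 10), followed by *Col4a1* (52.5 ± 33.7). Within a library the ratio of *Nid1* to *Col4a1* per kilobase was 1.56 ± 0.475 (SD, n = 10), from 0.983 to 2.36, and above 1 in 9 of 10 libraries. It was at 975 and 652 CPM in WT Osx+ CD45-, 308 and 515 in cKO Osx+ CD45-, 596, 271 and 101 in WT Osx- CD45-, and 280, 270 and 434 in cKO Osx- CD45- libraries, against 1.13 to 6.14 CPM in CD45+ libraries (median 1.95). The log2 fold change was 7.52 (SE 0.347, adjusted p = 4.12e-11, edgeR). *Nid2*, by contrast, was the 1 tested member not called, with 6.58 to 39.8 CPM in CD45- and 0.967 to 28.6 in CD45+ libraries (log2 fold change 0.50, SE 0.374, adjusted p = 0.257). All CD45+ libraries except WT Osx- CD45+ replicate 2 (0.967 CPM) held *Nid2* at 10.9 CPM or more, well above the floor. *Nid2* thus made up 83.8% ± 21.8 of the nidogen level per kilobase in CD45+ libraries (SD, n = 12; lowest 16.3%) and 6.71% ± 3.14 in CD45- libraries (SD, n = 10; highest 12.5%), and these shares did not overlap. WT Osx- CD45+ replicate 2 stood apart in other genes too, with the highest *Ptprc* (CD45) and *Pecam1* levels of all CD45+ libraries, 1808.1 and 213 CPM. Its summed leukocyte markers were nevertheless the lowest of the CD45+ libraries, at 15336.3 CPM. *Pecam1* made up most of its endothelial sum of 221 CPM, and the endothelial marker *Cdh5* was at most 2.22 CPM in any CD45+ library.

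*Hspg2* (perlecan) was higher in CD45- cells by 5.25 on the log2 scale (SE 0.389), with 19.0 to 139 against 0.818 to 6.28 CPM, and *Agrn*, the agrin of neuromuscular junctions and many other basement membranes, by 2.70 (SE 0.217), with 14.8 to 47.6 against 2.8 to 9.62 CPM. *Smoc2*, a calcium-binding matricellular protein, had a fitted log2 fold change of 7.80 (SE 0.456, adjusted p = 2.92e-10), from 6.39 to 80.4 CPM in CD45- libraries against at most 0.549. Its CD45+ level rests on 34 counts, with 3 counts or fewer in 8 of 12 libraries, so that the size of the fold and its place beside *Nid1* were not resolved at this depth. *Frem1*, part of the complex that anchors fetal epidermis, had a fitted value of 7.10 (SE 0.748), at 0.787 to 23.9 CPM and from 9 counts in all CD45+ libraries. The netrins, laminin-related proteins that guide axons and vessels, were higher by 4.02 (*Ntn1*, 3.55 to 22.6 CPM) and 4.29 (*Ntn4*, 1.32 to 11.6 CPM). The smallest called differences were those of *Dag1*, the dystroglycan receptor for laminin (1.27, SE 0.161, adjusted p = 3.04e-06, 14.7 to 44.2 against 7.06 to 18.1 CPM), and of *Npnt*, nephronectin (1.31, SE 0.508, adjusted p = 0.0319, at most 2.16 CPM). The *Npnt* call was lost in 9 of 22 fits that each left out 1 library. *Smoc1*, *Frem2* and *Fras1* were not tested, with 43, 34 and 8 counts in all CD45- libraries and 33, 10 and 11 in all CD45+ libraries.

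**Figure D3:**
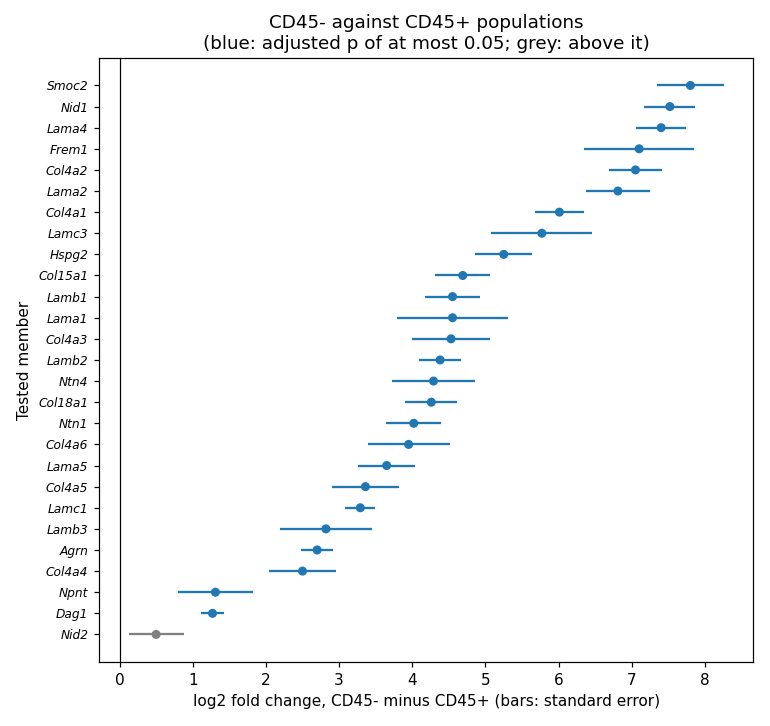
Log2 fold change of the 27 tested members, CD45- minus CD45+ populations, with standard errors (edgeR over all 22 libraries). *Smoc2*, *Nid1* and *Lama4* are at the top, between 7.40 and 7.80, the *Smoc2* value resting on 34 counts in CD45+ libraries, and *Nid2*, in grey, is the 1 member above the threshold of 0.05.

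Genes that act with these proteins were counted from lists set by function. Beside these counts stand 31.1% of all genes tested as higher in CD45- cells and 32.6% as lower. How many list genes passed the filter through CD45- libraries alone was not counted. Of 11 tested other basement membrane genes 10 were higher in CD45- cells and 0 lower (median log2 fold change 5.49), with *Sparc*, which binds collagen IV (6.99), and the fibulins *Fbln5* (7.01) and *Fbln1* (7.13) at the smallest p. Of 15 collagen assembly enzymes 13 were higher and 0 lower (median 3.15), and the collagen chaperone *Serpinh1* (7.51), the collagen IV cross-linking peroxidase *Pxdn* (6.04) and the lysyl oxidase *Loxl2* (7.17) had the smallest p. Of 17 receptors 13 were higher and 2 lower (median 3.41). The syndecan *Sdc2* (4.86), the netrin receptor *Unc5b* (4.72) and the collagen receptor *Ddr2* (5.12) had the smallest p. The 2 that were lower were *Sdc3* (-2.27) and *Sdc4* (-0.59), named after their values were seen. Matrix proteases were divided, with 7 of 14 higher, 3 lower and a median of 0.33. *Mmp11* (6.4), *Bmp1* (5.73) and *Mmp2* (5.43) were higher, whereas *Mmp12* (-3.81), *Ctss* (-3.39) and *Ctsb* (-0.90), genes known from macrophages and also named after their values were seen, were lower. In the same comparison all 11 tested leukocyte markers were lower, and 10 of 10 fibroblast, 12 of 12 endothelial, 11 of 12 pericyte and smooth muscle and 5 of 9 epithelial markers were higher. So were 4 of 8 skeletal muscle markers, 1 of 1 adipocyte marker and 1 of 3 Schwann cell markers, lists too short to be set against the 31.1%. Lower were 2 epithelial markers (*Epcam*, -4.96, and *Cdh1*, -4.07), 2 skeletal muscle markers and 1 Schwann cell marker. How much each of these cell types contributed to the members' levels was not tested.

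In the CD45- cells, the next question was whether cells with a history of Osx-cre activity differed from those without. The 4 Osx+ CD45- libraries held the members at a summed level of 1770.9 to 4208.9 CPM and the 6 Osx- CD45- libraries at 628.0 to 2940.5 CPM, with overlap. By edgeR, 0 of 27 tested members were called in either direction, where 1.23% of all genes were higher in Osx+ (185 genes) and 0.658% lower (99 genes). At an unadjusted p under 0.05 there were 5 members of 27, 3 higher and 2 lower, a share close to the 19.0% of all genes. DESeq2 called 1 member, *Smoc2*, as higher, and 3.46% of all genes higher and 3.14% lower. limma called 3, *Smoc2* and *Lamb2* as higher and *Lama5* as lower, and 3.67% of all genes higher and 1.05% lower. Deviations of same-numbered libraries of a genotype had correlations of 0.113 to 0.593 between these 2 populations (4 pairs). The labels do not say that a shared number means a shared animal. Same-numbered libraries of different genotypes reached up to 0.231, so the pairing was not established. A fit that took these numbers as a block again called 0 members by edgeR, and 152 genes higher and 35 lower. The median log2 fold change was 0.44 over members and 0.07 over all genes. No member had separate ranges over all Osx+ and Osx- libraries, against 2.72% of all genes for higher and 2.15% for lower.

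*Smoc2* came closest. It was at 80.4 and 58.0 CPM in WT Osx+, 24.4 and 72.5 in cKO Osx+, 28.8, 6.39 and 7.10 in WT Osx-, and 10.6, 22.8 and 24.9 CPM in cKO Osx- cells. The lowest Osx+ library, cKO Osx+ CD45- replicate 1, lay within the Osx- range, and the other 3 above it, while in all 4 same-numbered pairs the Osx+ library was the higher one. The log2 fold change was 1.81 (SE 0.470, adjusted p = 0.056, edgeR), and the adjusted p was 0.0101 by limma, 0.0215 by DESeq2, 0.0806 with the replicate block (1.74) and 0.0117 without WT Osx- CD45- replicate 1 (2.34). Without cKO Osx+ CD45- replicate 2 the log2 fold change was 1.31. *Lamb2* differed by 1.06 (SE 0.368, adjusted p = 0.13), from 39.3 CPM ± 11.2 in Osx+ (SD, n = 4) to 18.6 ± 7.46 in Osx- cells (SD, n = 6), and *Col15a1* by 1.23 (SE 0.491, adjusted p = 0.185), both higher in 4 of 4 pairs. The *Col15a1* value ran from 0.45 without cKO Osx+ CD45- replicate 2 to 1.87 without WT Osx- CD45- replicate 1. *Lama5* and *Col4a5* had the opposite sign and were lower in the Osx+ library of 4 of 4 pairs. *Lama5* was at 4.08, 19.4, 28 and 25.1 CPM in the Osx+ libraries and at 15.1 to 65.3 CPM (median 46.4) in the Osx- libraries. The log2 difference was -1.28 (SE 0.550, adjusted p = 0.219, edgeR). It was -2.04 without WT Osx+ CD45- replicate 2 and -0.92 without WT Osx+ CD45- replicate 1. *Col4a5* was at 2.55, 2.82, 8.76 and 6.10 CPM against 7.32 to 19.3 CPM (median 13.7), a difference of -1.56 (SE 0.655, adjusted p = 0.205). One direction in 4 of 4 pairs was not particular to these genes. *Nid1*, *Nid2*, *Lama1*, *Lama2*, *Lama4*, *Hspg2*, *Ntn4* and *Frem1* were also higher and *Col18a1* and *Npnt* also lower in 4 of 4. The share of all genes with such a pattern was not counted. As the pairing itself was not established, these counts of pairs describe the libraries and carry no weight as support. The 95% intervals were 0.88 to 2.73 for *Smoc2*, -2.35 to -0.20 for *Lama5* and -2.85 to -0.28 for *Col4a5*, before any adjustment for the number of genes.

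**Figure D4:**
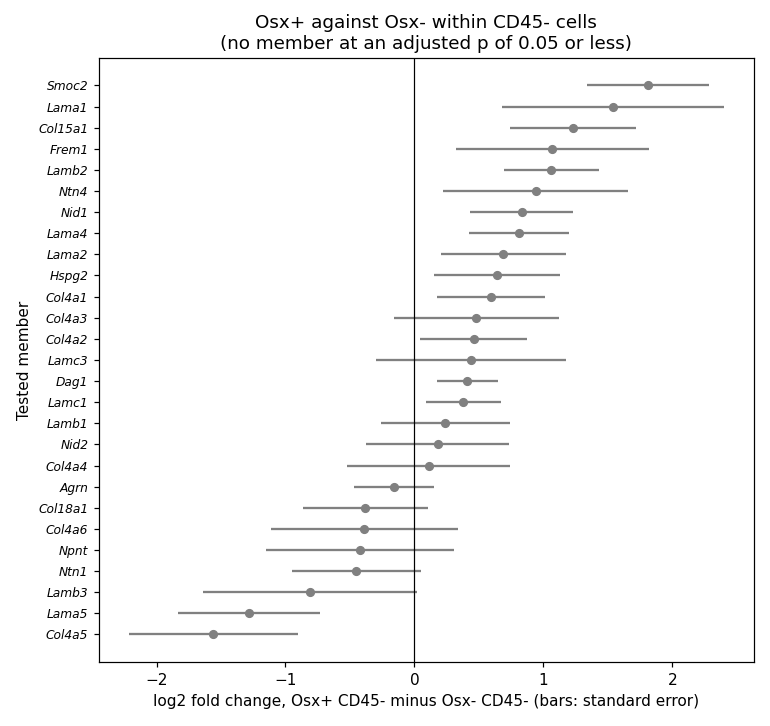
Log2 fold change of the 27 tested members, Osx+ CD45- minus Osx- CD45- cells, with standard errors (edgeR over all 22 libraries). *Smoc2* (1.81) and *Col4a5* (-1.56) are at the ends, and 19 members lie above and 8 below 0.

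Over the 10 CD45- libraries, members differed in which library was the highest and which the lowest. WT Osx+ CD45- replicate 1 was the highest library for 15 of 27 tested members, among them *Col4a1*, *Col4a2*, *Nid1*, *Lama4*, *Lama2*, *Lamb1*, *Lamc1*, *Hspg2* and *Smoc2*. The same library was the lowest for 4, *Col4a5*, *Col4a6*, *Lama5* and *Lamb3*, the last with 0 counts. cKO Osx- CD45- replicate 1 was the highest for 5, *Col4a5*, *Col4a6*, *Col18a1*, *Lama5* and *Ntn1*. WT Osx- CD45- replicate 3 was the lowest for 15. The share of all genes with the same highest or lowest library was not counted, so these counts are not a trait of the members. Cell type marker sums also differed among these libraries, and whether they followed the members' levels was not tested. WT Osx+ CD45- replicate 1 had the highest fibroblast (67795.5 CPM) and pericyte and smooth muscle sums (5338.9) and the lowest epithelial (41.6) and leukocyte (150.0) sums of the CD45- libraries. The epithelial sum was 1231.0 CPM in cKO Osx- CD45- replicate 1 and at most 1997.3 CPM, in cKO Osx- CD45- replicate 2. This sum was mostly that of the keratins *Krt18* and *Krt8*, with medians of 679 and 209 CPM in CD45- libraries. The medians of *Cdh1* and *Epcam* were 5.35 and 0.0228 CPM, so the sum is not a measure of epithelial cells as such. WT Osx- CD45- replicate 3 had the highest leukocyte (18408.2) and the lowest fibroblast (5223.8), endothelial (69.2) and pericyte and smooth muscle (395.0) sums. Over the 4 Osx+ libraries the fibroblast sum was 15882.7 to 67795.5 CPM and the epithelial sum 41.6 to 939 CPM, and over the 6 Osx- libraries 5223.8 to 36713.4 and 511 to 1997.3 CPM. The part of these markers' cells in the members' differences was not tested.

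**Figure D5:**
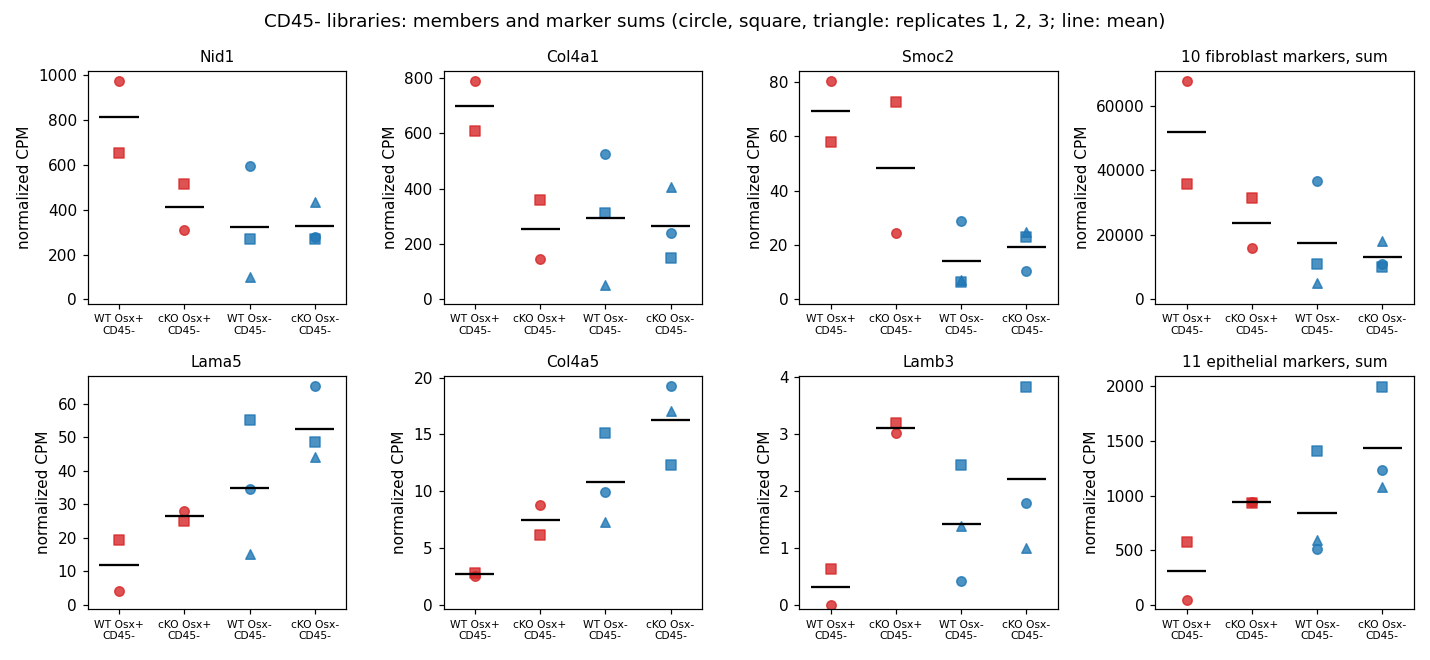
Normalized CPM of 6 members and of 2 summed marker lists in each CD45- library, by group (red Osx+, blue Osx-; marker shapes are replicates, lines are means). *Nid1* and *Col4a1* are highest in WT Osx+ CD45- replicate 1 and *Smoc2* is higher in most Osx+ libraries, while *Lama5*, *Col4a5*, *Lamb3* and the epithelial sum are lowest in WT Osx+ CD45- replicate 1. In the epithelial list *Krt18* and *Krt8* have the highest medians by far.

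The lists of interacting genes were also compared between Osx+ CD45- and Osx- CD45- cells by edgeR. Of other basement membrane genes 0 of 11 passed, of receptors 0 of 17 and of collagen assembly enzymes 0 of 15. At an unadjusted p under 0.05 there were 3, 4 and 3, beside 19.0% of all genes. Of the 14 matrix proteases 1 passed as higher, beside 1.23% of all genes. *Mmp9*, the gelatinase B that cleaves collagen IV, was at 28.3, 135, 145 and 81.8 CPM in the Osx+ libraries and at 5.33 to 27.4 CPM in the Osx- libraries, just without overlap (log2 fold change 2.82, SE 0.446, adjusted p = 0.00547). Of all genes 2.72% were higher in Osx+ libraries without overlap. *Mmp9* is also made by myeloid cells, and the summed leukocyte markers were at 150.0, 5792.6, 12329.9 and 5278.0 CPM in the same Osx+ libraries and at 240.0 to 18408.2 CPM in the Osx- libraries. Their part in the *Mmp9* level was not tested.

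Within CD45+ cells, members differed little between Osx+ and Osx- libraries relative to their spread. By edgeR 0 of 27 were called (0.00665% of all genes, 1 gene, were), and 2 had an unadjusted p under 0.05, as 4.06% of all genes did. *Nid1* was at 1.61 CPM on average in Osx+ and 3.50 in Osx- libraries (log2 fold change -1.14, SE 0.398, adjusted p = 1), *Lama4* at 0.616 and 1.28 (-1.10, SE 0.441, adjusted p = 1), and *Smoc2*, with 0 to 10 counts in a library, at 0.0731 and 0.254 (-1.67, SE 0.834, adjusted p = 1). limma and DESeq2 called 0 members, and 0.00665% and 0.0402% of all genes. The summed level of the members was 69.9 to 156 CPM in Osx+ and 83.8 to 227 CPM in Osx- libraries. The highest, cKO Osx- CD45+ replicate 2, also had the highest *Lamb1* (57.3 CPM), *Col18a1* (51.1 CPM) and *Krt18* (168 CPM) levels of the CD45+ libraries.

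Between genotypes, 0 members were called in any of the 4 populations by edgeR, limma or DESeq2, where edgeR called 0.00665% of all genes (1 gene) in Osx+ CD45- cells and 0.0% in each other population. limma called 0.0% of all genes in each population, and DESeq2 0.917% in Osx+ CD45-, 3.49% in Osx- CD45-, 0.00669% in Osx+ CD45+ and 0.174% in Osx- CD45+ cells. All directions below are those of the libraries labelled Cdh2-cKO, in whose CD45- cells *Cdh2* had higher values than in wild type. In Osx+ CD45- cells, with 2 libraries per genotype, 4 of 27 members had an unadjusted p under 0.05, as 10.5% of all genes did, *Col4a1* at 147 and 359 CPM against 788 and 606 in wild type (log2 fold change -1.46, SE 0.669, adjusted p = 0.465), *Col4a2* (-1.43, SE 0.663, adjusted p = 0.47), *Lama1* (-2.99, SE 1.41, adjusted p = 0.473) and *Lamb3* at 3.01 and 3.19 against 0 and 0.619 CPM (3.25, SE 1.37, adjusted p = 0.439). *Lama1* was named after its value was seen. The *Col4a1* value was -2.25 without cKO Osx+ CD45- replicate 2 and -0.96 without cKO Osx+ CD45- replicate 1, and *Lamb3* was at 2.31 without WT Osx+ CD45- replicate 1 and had no wild type count left without replicate 2. In this comparison 14 members were lower and 4 higher without overlap, against 20.7% and 21.4% of all genes. The 95% interval of the *Col4a1* difference was -2.77 to -0.15, and the fibroblast sum was 15882.7 and 31451.9 CPM in the Cdh2-cKO and 67795.5 and 35948.4 CPM in the wild type libraries. The endothelial sum was 151 and 107 against 281 and 393 CPM, and the epithelial sum 939 and 934 against 41.6 and 574 CPM. All 10 fibroblast and all 12 endothelial markers had a log2 fold change below 0 and all 8 skeletal muscle and all 11 leukocyte markers tested one above 0, with 0 called. The part of these markers' cells was not tested.

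In Osx- CD45- cells the smallest p-values were those of *Lamb1* (411, 431 and 479 CPM against 339, 286 and 105; log2 fold change 0.86, SE 0.641), *Ntn1* (0.80, SE 0.627) and *Lamc1* (0.46, SE 0.370), with edgeR adjusted p of 0.887, 0.902 and 0.906 and 0 members at an unadjusted p under 0.05. Of all genes 9.59% had one. The *Lamb1* libraries did not overlap, as held for 3.84% of all genes. All 11 leukocyte markers tested were below 0 (median -3.50, 0 called, 10 at an unadjusted p under 0.05), and WT Osx- CD45- replicate 3, with *Lamb1* at 105 CPM, held 18408.2 CPM of these markers. Without it *Lamb1* differed by 0.52 and *Lamc1* by 0.13, and *Ntn1* differed by 0.42 without cKO Osx- CD45- replicate 1. In Osx+ CD45+ cells there were likewise 0 members at an unadjusted p under 0.05 (3.42% of all genes), the nearest being *Lamb3* (-3.01, at 0.0384 against 0.34 CPM on average), *Lama5* (1.39, 2.61 against 0.988 CPM) and *Lamc1* (0.64, 26.7 against 17.1 CPM). In Osx- CD45+ cells 2 of 27 members had one, against 9.83% of all genes, *Col18a1* (1.48, SE 0.625, 25 against 8.95 CPM, adjusted p = 0.465) and *Ntn1* (1.71, SE 0.759, adjusted p = 0.492), followed by *Col4a1* (1.04, SE 0.563, 7.97 against 3.86 CPM, adjusted p = 0.553). The *Col18a1* difference was 0.42 without cKO Osx- CD45+ replicate 2.

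Whether the CD45 difference itself depended on the labelled genotype was tested as an interaction. By edgeR 0 members were called (0.0% of all genes), and the 3 smallest p-values belonged to *Lamb3* (difference of log2 fold changes 3.61, SE 1.26), *Col4a1* (-1.61, SE 0.583) and *Col4a2* (-1.64, SE 0.605), each with an adjusted p of 0.602. For the Osx difference within CD45- cells 0 members were called (0.00665% of all genes, 1 gene), with *Dag1* (-0.89, SE 0.479, adjusted p = 0.608), *Lamc1* (-1.05, SE 0.586, adjusted p = 0.634) and *Ntn1* (-1.66, SE 0.993, adjusted p = 0.685) nearest. With 2 or 3 libraries per group these intervals are wide, that of *Ntn1* running from -3.61 to 0.28, and a p above the threshold does not show that the genotypes were alike.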

How the data were processed

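RNA had been sequenced from 22 libraries (amplified cDNA of the SMARTer Ultra Low kit, without molecular identifiers). Per the study's methods and the submitters' processing notes, the authors aligned reads to GRCm38 with STAR 2.0.4b and counted uniquely aligned reads per gene with featureCounts. The deposited counts are whole and not normalized. The deposited CPM and RPKM values, which the authors computed from the counts, were only checked against them. The kit does not mark strand, so that a gene and an antisense partner cannot be told apart.

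After exclusion of 355 rRNA genes, 15043 genes exceeded 1 CPM in 2 or more libraries and were fitted over all 22 libraries with edgeR 4.0.16 in R 4.3.3 (TMM factors, quasi-likelihood test, 8 group means) with Benjamini-Hochberg adjustment over all of them and a threshold of 0.05. Standard errors were derived from the test. Levels are counts over TMM-scaled library size, compared between genes per kilobase of the deposited gene length. Same-numbered libraries were taken as pairs where every correlation of their deviations from the group means was over 0.1, which held between Osx+ CD45- and Osx- CD45- cells of a genotype. This rule used the same data, and the labels do not state any pairing. Replicates differed by 49.7 to 409 times the counting variance (20 pairs). limma 3.58.1 (voomWithQualityWeights, the study's test) and DESeq2 1.42.0, which gave no p for 102 genes, were alternatives, with others named in the closing section. The fit was tested on simulated counts.

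The members and lists were chosen with earlier results of these data known. All members were to be named in the comparison of CD45- with CD45+ cells, and in the others the called members and the 3 with the smallest p; of each list, the 3 genes with the smallest p. Marker lists covered leukocytes, fibroblasts, endothelium, pericytes and smooth muscle, epithelium, skeletal muscle, adipocytes and Schwann cells.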

Additional observations from a re-analysis of the deposited data

How the results depend on the processing

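The members called as higher in CD45- than in CD45+ cells numbered 26 by limma, DESeq2, RLE factors, without WT Osx- CD45- replicate 3 and WT Osx- CD45+ replicate 2, and, in an alternative chosen after seeing the data, without the 2 CD45- libraries with over 10000 CPM of leukocyte markers. They numbered 27 of 31 without a filter on low counts, 24 with a log2 fold change of at least 2 required, and 25 to 26 in fits that each dropped 1 library. With the replicate number as a block there were 25, *Npnt* being lost (adjusted p = 0.144). Over all populations, same-numbered libraries of a genotype did not all deviate together (correlations of -0.294 to 0.593), so the numbers were taken as pairs only between Osx+ CD45- and Osx- CD45- cells. The replicate block changed no other count of members called.

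Between Osx+ CD45- and Osx- CD45- cells, where edgeR called 0 members, limma called 2 as higher (*Smoc2*, log2 fold change 2.05, and *Lamb2*, 1.02) and 1 as lower (*Lama5*, -1.52), DESeq2 1 as higher (*Smoc2*, 1.78), and the fit without the 2 libraries that stand apart 1 (*Smoc2*, 1.64). Leaving out each library gave 0 to 2 members called as higher, the 2 (*Smoc2*, 2.34, and *Col15a1*, 1.87) without WT Osx- CD45- replicate 1, while without cKO Osx+ CD45- replicate 2 these were 1.31 and 0.45. The cause was not tested. In the other comparisons every alternative called 0 members. The members with the smallest p kept their sign, but in each comparison other than CD45- with CD45+ 6 to 17 of 27 tested members had another sign in at least 1 alternative. Without TMM factors the members' summed level in cKO Osx- CD45- cells was 2696.5 in place of 2239.7 CPM. Levels under about 0.2 CPM, that of 3 counts in the library with the highest such floor, were not resolved at this depth, and the 2 Osx+ CD45- libraries per genotype limit every comparison that uses them.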
